A study of Mus musculus with 20 samples.

Results

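A set of 10 genes of the mitochondrial cell death pathway was followed in cultured mouse hippocampal neurons whose NMDA receptors had been blocked for 24 h: the BH3-only genes Bbc3 (Puma), Pmaip1 (Noxa), Hrk and Bcl2l11 (Bim), the effector Bax, the anti-apoptotic genes Bcl2, Bcl2l1 (Bcl-x) and Mcl1, and Apaf1 and Cycs (cytochrome c), which build the apoptosome. They were chosen with earlier results of these data known, and found by symbol as the array's gene name column gives it. Of the 10, 10 were tested among 19513 genes. They had 21 probes on the array, of which 18 were tested. Dissociated neurons on day 21 in culture, in multiwell plates, received vehicle (the control), 100 µM AP5, 100 nM NVP-AAM077 (NVP) or 1 µM of a compound spelled Ro25-4891 in the labels (Ro25), with 5 arrays in each of the 4 groups. No genotype, strain, sex or age of the animals is given, and whether the 5 samples of one group are separate cultures is not stated, so the p-values describe the spread among these samples and that spread may be technical. AP5 is a competitive antagonist at the glutamate site of NMDA receptors, and NVP-AAM077 prefers receptors that hold the GluN2A subunit; for Ro25 no subunit preference is stated here, because its code as spelled is not a familiar one.

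Each of the 20 arrays compared the neurons' RNA in Cy5 with a universal mouse reference RNA in Cy3, with no dye swap. A level below is the log2 ratio of sample to reference, and a difference is between 2 group means of that ratio. A level shows how a gene stood against the reference mixture, so levels of different genes are not compared. Of the probes of an array 58.6 to 69.3% were above background in red, and 0 spots were saturated. The number of arrays limits the precision. The 10 pan-neuronal marker genes tested lay at a mean log2 ratio of 4.44 to 4.61 in the 4 groups and the 8 astrocyte genes at 3.78 to 3.86. The 7 oligodendrocyte lineage genes lay at 2.15 to 2.31 and the 6 fibroblast genes at -4.36 to -4.16. The neuronal marker Rbfox3 was not tested. Every gene of these lists was above background on all arrays of each group, so transcripts of each list were present. Of the 5 microglia genes, at -1.44 to -1.29, 4 or 5 were above background on all arrays of a group. In such bulk samples fewer cells of a type and less RNA per cell cannot be told apart. One array stood apart: AP5 replicate 1 had a pan-neuronal mean of 3.93, against 4.35 to 4.79 on the other 19 arrays, and an astrocyte mean of 2.78, against 3.18 to 4.39.

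In the mitochondrial pathway, BH3-only proteins sense stress or loss of survival signals and either bind anti-apoptotic Bcl2 proteins or activate Bax and Bak1, which open the outer mitochondrial membrane. Cytochrome c then leaves the mitochondria and assembles with Apaf1 into the apoptosome, which activates caspase-9 and through it the executioner caspases. In neurons NMDA receptor activity is known as a survival signal, and its blockade as a trigger of apoptosis in the developing brain; Bbc3, Pmaip1 and Apaf1 are known targets of p53, and Bbc3 and Bcl2l11 also of FOXO factors.

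Sequences upstream of start sites are shown for 4 of the 6 genes that moved with AP5, each holding at least 1 of the short motifs searched; for Bbc3 the window with the FOXO match was chosen. RefSeq (GRCm38.p6) windows were matched by symbol for 9 of the 10 genes, 14 windows in all, without Pmaip1; several genes have more than 1 start site, and their windows can overlap. Each line holds the 250 bases before a start site, 5′ to 3′ along the gene. Capitals mark matches, on either strand, to a FOXO motif (GTAAACA), the CRE (TGACGTCA), its shorter core (TGACG, contained in the CRE), the NRF1 core (GCGCATGC) or 2 E2F motifs (TTTCGCGC and TTTGGCGC). The Apaf1 window lies at chr10:91082744-91082993 on the minus strand, the second of 3 Bbc3 windows at chr7:16310011-16310260 on the plus strand, the Bcl2 window at chr1:106714291-106714540 on the minus strand and the Cycs window at chr6:50566570-50566819 on the minus strand.
Apaf1: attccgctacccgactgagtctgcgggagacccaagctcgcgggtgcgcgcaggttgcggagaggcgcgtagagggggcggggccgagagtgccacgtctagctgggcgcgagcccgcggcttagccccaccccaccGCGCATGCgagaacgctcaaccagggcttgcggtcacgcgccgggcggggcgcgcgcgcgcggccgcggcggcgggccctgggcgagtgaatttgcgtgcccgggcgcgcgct
Bbc3, second start site: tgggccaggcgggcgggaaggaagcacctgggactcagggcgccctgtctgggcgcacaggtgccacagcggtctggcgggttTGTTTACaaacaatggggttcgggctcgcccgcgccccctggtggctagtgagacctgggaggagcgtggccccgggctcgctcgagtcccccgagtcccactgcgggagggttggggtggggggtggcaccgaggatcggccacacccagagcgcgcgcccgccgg
Bcl2: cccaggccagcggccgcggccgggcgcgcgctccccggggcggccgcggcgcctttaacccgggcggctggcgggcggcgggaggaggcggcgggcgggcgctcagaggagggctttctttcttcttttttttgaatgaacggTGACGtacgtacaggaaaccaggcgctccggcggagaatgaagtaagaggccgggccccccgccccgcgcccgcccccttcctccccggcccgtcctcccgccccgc
Cycs: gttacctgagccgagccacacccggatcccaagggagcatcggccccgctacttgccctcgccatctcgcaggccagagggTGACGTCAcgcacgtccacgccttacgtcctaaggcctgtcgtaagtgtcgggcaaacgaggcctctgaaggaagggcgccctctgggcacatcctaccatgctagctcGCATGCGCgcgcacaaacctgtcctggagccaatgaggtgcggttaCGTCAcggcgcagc

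The FOXO motif occurred in 2 of the 14 windows, those of Bbc3 shown above and of Bcl2l11, and in 3.17% of the same 250 bases of all 32851 windows in the table. The NRF1 core was present in 3 of 14, upstream of Apaf1, Bax and Cycs, against 2.26% of all windows, and the full CRE in 1 of 14, upstream of Cycs, against 1.55%. The Cycs window held the shorter CRE core at 2 separate places, one of them the CRE itself, and 4 of the 14 windows held it at least once, against 17.8% of all. For the E2F motifs, TTTCGCGC matched 1 of 14 windows, upstream of Bcl2l1, against 0.256% of all, and TTTGGCGC matched 0, against 0.417%. The GC box GGGCGG, left in lower case, matched 10 of 14 windows and 32.7% of all. These matches are letters in a window, not measured binding.

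AP5 was followed by higher levels of 3 death-promoting genes and lower levels of 3 others. Bbc3, Apaf1 and Pmaip1 rose by 1.40- to 1.65-fold, and Bcl2, Bcl2l1 and Cycs fell by 1.21- to 1.31-fold. Thus 6 of the 10 genes passed the test (limma, Benjamini-Hochberg adjusted p under 0.05 over all 19513 genes), where 6.06% of all genes passed; 3 of 10 passed as higher, where 2.52% of all genes did, and 3 of 10 as lower, where 3.55% did. Hrk, Bcl2l11, Mcl1 and Bax did not pass. The median difference over the 10 genes was 0.15 on the log2 scale, and that over all genes tested was -0.011. In 5 of the 10 genes the 5 AP5 arrays did not overlap the 5 control arrays: 3 were higher, as were 2.49% of all genes, and 2 were lower, as were 3.89%. Because the 10 genes were chosen with earlier results of these data known, these shares are no test of the set.

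**Figure D1:**
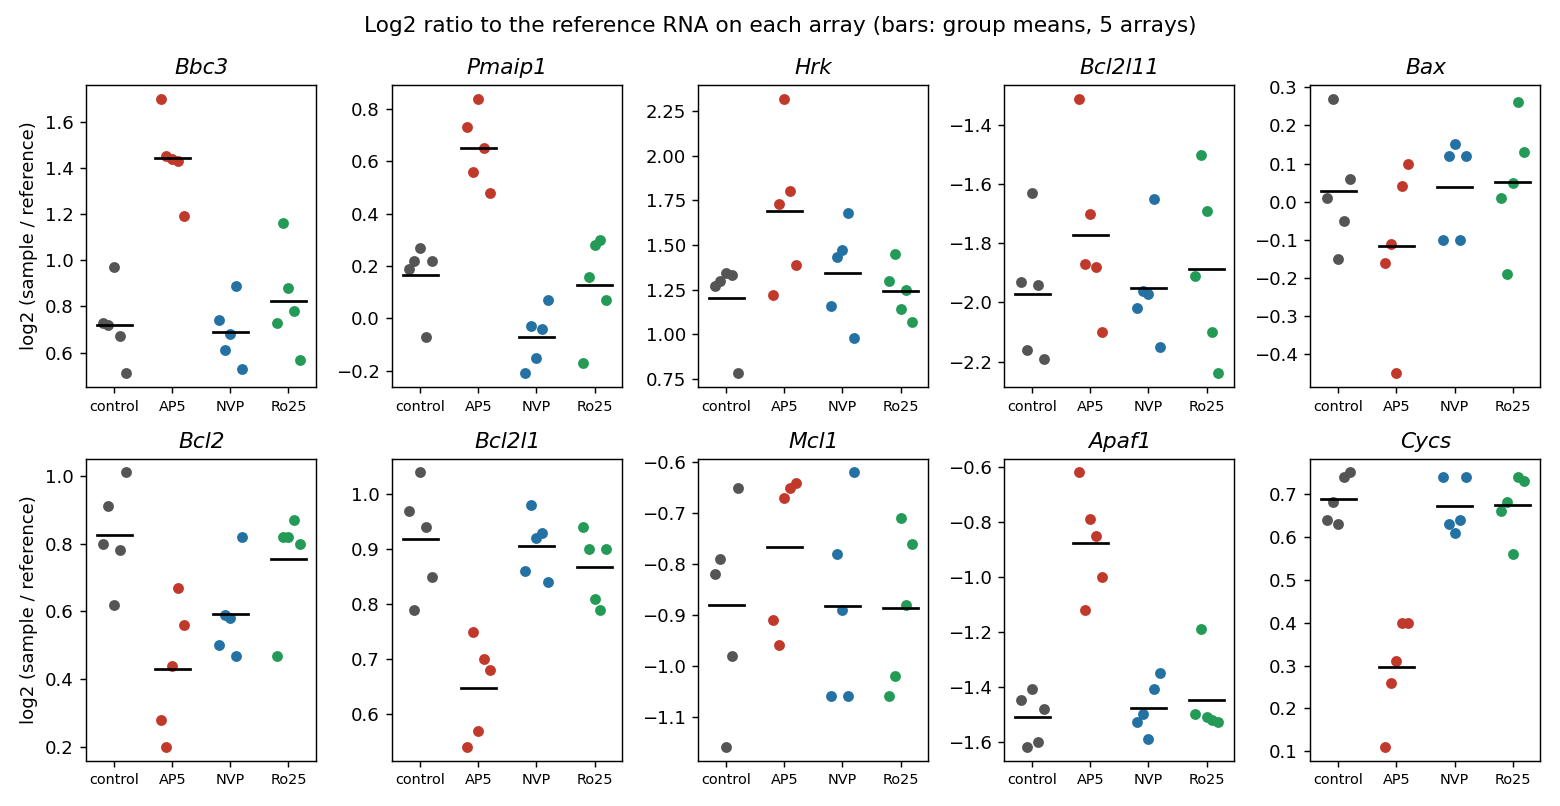
Log2 ratio of sample to reference RNA (y axis) on each of the 20 arrays for the 10 genes, by group (x axis); points are arrays and bars are means of 5. The AP5 points of Bbc3, Pmaip1 and Apaf1 lie above every control point, those of Bcl2l1 and Cycs below every control point, and those of the other 5 genes overlap the control points.

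Bbc3 encodes Puma, a BH3-only protein that binds all the main anti-apoptotic Bcl2 proteins. Its log2 ratios were 0.73, 0.72, 0.97, 0.67 and 0.51 in control replicates 1 to 5 and 1.70, 1.45, 1.44, 1.43 and 1.19 with AP5. The lowest AP5 array lay above the highest control array. The difference was 0.72 (SE 0.11, 95% interval 0.50 to 0.95; limma adjusted p = 0.000269), a 1.65-fold rise. Its single probe (mm7, chr7:14080459-14080518, plus strand) was above background on 20 of 20 arrays.

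Pmaip1 encodes Noxa, a BH3-only protein that binds Mcl1 above all. Its log2 ratios were 0.19, 0.22, 0.27, -0.07 and 0.22 in control and 0.73, 0.56, 0.84, 0.65 and 0.48 with AP5, again without overlap. The difference was 0.48 (SE 0.09, 95% interval 0.29 to 0.68; limma adjusted p = 0.00264), or 1.40-fold.

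Hrk, a BH3-only gene known from neurons deprived of trophic support, had the widest spread of the 10 with AP5. Its log2 ratios were 1.27, 1.30, 1.34, 1.33 and 0.78 in control and 1.22, 1.73, 2.32, 1.80 and 1.39 with AP5. All 5 AP5 arrays lay above the control mean of 1.20, but AP5 replicate 1 lay below 4 of the control arrays. The difference of 0.49 (SE 0.17, 95% interval 0.13 to 0.84) did not pass (limma adjusted p = 0.108), and it did without AP5 replicate 1, at 0.61 (adjusted p = 0.0320). Bcl2l11 encodes Bim, the BH3-only protein that links loss of growth factor signals to mitochondria. Its log2 ratios ran from -2.19 to -1.63 in control and from -2.10 to -1.31 with AP5, a difference of 0.19 (SE 0.15; adjusted p = 0.586) on the only 1 of its 3 probes that was above background; the other 2 were above background on 0 of 20 arrays.

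Bcl2 and Bcl2l1, which hold Bax and Bak1 in check, were lower with AP5. Bcl2 had log2 ratios of 0.80, 0.91, 0.62, 0.78 and 1.01 in control and 0.28, 0.20, 0.44, 0.67 and 0.56 with AP5. The groups overlapped, because AP5 replicate 4 lay above control replicate 3. The difference was -0.39 (SE 0.10, 95% interval -0.60 to -0.18; limma adjusted p = 0.0211), and the call was lost without AP5 replicate 2 (-0.33, adjusted p = 0.0605), control replicate 2 (-0.37, 0.0537) or control replicate 5 (-0.35, 0.0628).

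Bcl2l1 had log2 ratios of 0.97, 0.79, 1.04, 0.94 and 0.85 in control and 0.54, 0.75, 0.57, 0.70 and 0.68 with AP5, so every AP5 array lay below every control array. The difference was -0.27 (SE 0.06, 95% interval -0.40 to -0.15; limma adjusted p = 0.00722), or 1.21-fold lower. Both genes also lost the call when all probes of a gene were averaged, Bcl2 at -0.21 (adjusted p = 0.0945) and Bcl2l1 at -0.23 (0.0867), and when only the AP5 and control arrays were fitted (0.0614 and 0.0579). Bcl2l1 lost it as well with the authors' series table (-0.20, adjusted p = 0.324) and with scale normalization between arrays (-0.23, 0.0643). Mcl1, a short-lived anti-apoptotic protein that neurons need, ran from -1.16 to -0.65 in control and from -0.96 to -0.64 with AP5. Its difference was 0.11 (SE 0.11, 95% interval -0.11 to 0.34; adjusted p = 0.675).

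Bax, the main pore-forming effector in neurons, ran from -0.15 to 0.27 in control and from -0.45 to 0.10 with AP5. The difference of -0.14 (SE 0.10, 95% interval -0.36 to 0.07) did not pass (adjusted p = 0.538). The interval leaves room for a fall of 0.36 and a rise of 0.07 on the log2 scale.

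The 2 building blocks of the apoptosome moved in opposite directions. Apaf1, its scaffold, had log2 ratios of -1.45, -1.62, -1.41, -1.60 and -1.48 in control and -0.62, -1.12, -0.79, -0.85 and -1.0 with AP5, without overlap. The difference was 0.64 (SE 0.09, 95% interval 0.46 to 0.82; limma adjusted p = 9.9e-05), or 1.56-fold, and Apaf1 ranked 109 of all genes by p. Cycs, which encodes the electron carrier of the respiratory chain that triggers the scaffold once released, had log2 ratios of 0.64, 0.68, 0.63, 0.74 and 0.75 in control and 0.11, 0.26, 0.31, 0.40 and 0.40 with AP5. Its groups did not overlap either, and the difference was -0.39 (SE 0.06, 95% interval -0.52 to -0.27; limma adjusted p = 0.000338), 1.31-fold lower.

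The probes of a gene mostly moved together. The 3 Cycs probes, at chr6:50525306-50525365, chr6:50524593-50524652 and chr6:50524573-50524632 of mm7 (minus strand, the last 2 overlapping), fell by 0.39, 0.32 and 0.32, and 3 of 3 passed when every probe was tested by itself. For Bcl2, the probe at chr1:106438098-106438157 fell by 0.39 (adjusted p = 0.0239) and a second at chr1:106612249-106612308, designed on another transcript, fell by 0.26 (0.0335); the remaining probe, above background on 8 of 20 arrays, differed by 0.01. The 3 Bcl2l1 probes differed by -0.27, -0.24 and -0.18, and 1 of the 3 passed, that at chr2:152521752-152521811 (adjusted p = 0.00923).

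The probe that gave the Apaf1 value, at chr10:90548607-90548666 (minus strand), was above background on 20 of 20 arrays. A second Apaf1 probe, at chr10:90549877-90549936, was dim: it was not well above background on any control array (0 of 5) and was on 4 of 5 AP5 arrays, so its control level is only a bound; the measured values differed by 0.25 (adjusted p = 0.192). The third was above background on 4 of 20 arrays and was not tested. The 2 Mcl1 probes differed by 0.11 and -0.02. Positions are those of the array's annotation on mm7, which gives no exon or UTR for a probe.

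**Figure D2:**
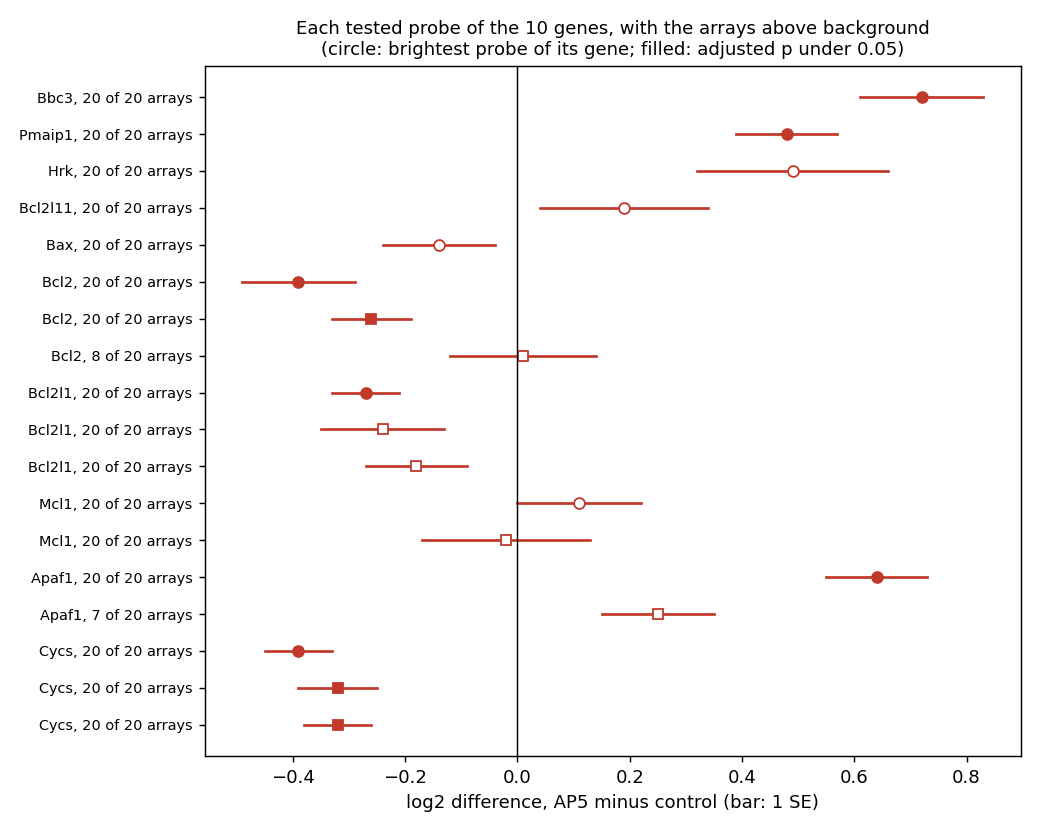
Log2 difference of AP5 minus control (x axis; bars, 1 SE) for each of the 18 tested probes of the 10 genes, with the number of arrays above background beside the gene name. Probes of Cycs lie together at -0.39 and -0.32, whereas the dim probes of Apaf1 and Bcl2, at 0.25 and 0.01, lie nearer 0 than the brightest probe of their gene.

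NVP and Ro25 were each compared with the same 5 control arrays, so the 3 comparisons with control are not independent. With NVP, 0 of the 10 genes passed (limma), where 0% of all genes passed (0 of 19513; 1149 genes and 2 of the 10 had an unadjusted p under 0.05). The 2 were Pmaip1, which ran from -0.21 to 0.07 and differed from control by -0.24 (95% interval -0.43 to -0.05; adjusted p = 0.728), and Bcl2, which ran from 0.47 to 0.82 and differed by -0.23 (95% interval -0.44 to -0.03; adjusted p = 0.783). With Ro25, 0 of the 10 passed, where 0.0154% of all genes passed (3 of 19513; 848 genes and 0 of the 10 had an unadjusted p under 0.05). The median difference over the 10 genes was -0.0052 with NVP and 0.0094 with Ro25. The second Bcl2 probe differed from control by 0.06 with NVP and by -0.19 with Ro25 and did not pass.

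**Figure D3:**
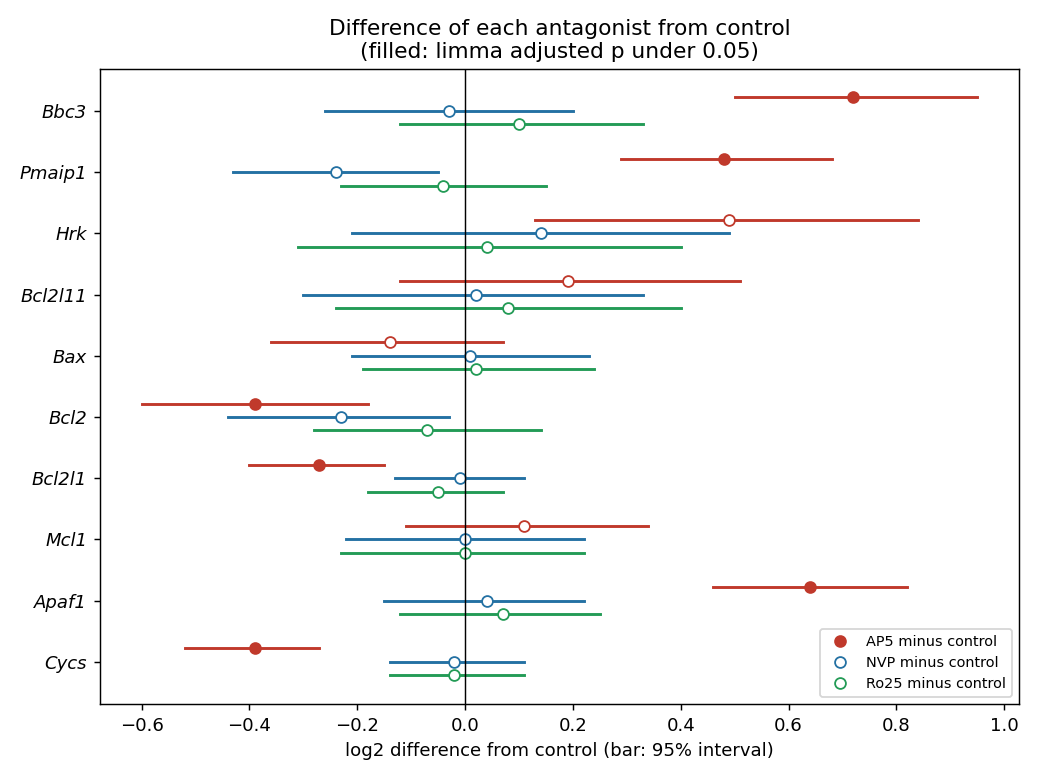
Log2 difference from control (x axis; bars, 95% intervals; 5 arrays a group) of AP5, NVP and Ro25 for the 10 genes, filled where the limma adjusted p was under 0.05. The intervals of Bbc3, Pmaip1 and Apaf1 with AP5 do not reach those with NVP or Ro25, and filled points occur with AP5 and not with the other antagonists.

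The intervals with NVP and Ro25 come from the fit without slide, and NVP and control arrays shared no slide. For Bbc3, NVP differed from control by -0.03 (95% interval -0.26 to 0.20) and Ro25 by 0.10 (-0.12 to 0.33). For Apaf1 the values were 0.04 (-0.15 to 0.22) and 0.07 (-0.12 to 0.25). For Cycs they were -0.02 (-0.14 to 0.11) and -0.02 (-0.14 to 0.11), so that a fall as large as the 0.39 seen with AP5 lay outside both intervals. Under other processing Bbc3 ran from -0.43 to -0.02 with NVP and from -0.28 to 0.14 with Ro25. Its low ends lay outside the Bbc3 intervals, which are thus no firm bounds.

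The difference between antagonists was tested directly. The antagonists also differed in dose, with 100 µM of AP5 against 100 nM of NVP and 1 µM of Ro25, so doses were not matched. Between AP5 and NVP 5 of the 10 genes passed, where 5.7% of all genes did; 3 were higher with AP5, as were 2.69% of all genes, and 2 were lower, as were 3.01%. Bbc3 was higher with AP5 by 0.75 (SE 0.11; limma adjusted p = 0.000211), Pmaip1 by 0.72 (SE 0.09; 5.44e-05) and Apaf1 by 0.60 (SE 0.09; 0.000239), while Bcl2l1 was lower by 0.26 and Cycs by 0.38. With the slide as a fixed block 0 of the 10 passed between AP5 and NVP, and of all 19513 genes 34 passed as higher and 73 as lower. Apaf1 was then at 0.50 (adjusted p = 0.0591), Bbc3 at 0.55 (0.0618), Pmaip1 at 0.65 (0.0791), Cycs at -0.37 (0.139) and Bcl2l1 at -0.30 (0.155). The Pmaip1 arrays ran from 0.48 to 0.84 with AP5 and from -0.21 to 0.07 with NVP. On its brightest probe Bcl2 was intermediate with NVP, at a mean of 0.59 ± 0.14 (SD, n = 5) against 0.43 ± 0.20 with AP5 and 0.82 ± 0.14 in control. That difference of -0.16 between AP5 and NVP did not pass (adjusted p = 0.449). The second Bcl2 probe, above background on 20 of 20 arrays, was not intermediate, as NVP differed from control by 0.06. With every probe tested by itself, it was lower with AP5 than with NVP by 0.32 (limma adjusted p = 0.00923).

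Between AP5 and Ro25 the same 5 genes passed, where 3.09% of all genes did; 3 were higher with AP5, as were 1.13% of all genes, and 2 lower, as were 1.96%. Bbc3 differed by 0.62, Pmaip1 by 0.52, Apaf1 by 0.57 and Cycs by -0.38, and Bcl2l1 by -0.22 with an adjusted p of 0.0471. With the slide as a fixed block 1 of the 10 and 206 of all 19513 genes passed between AP5 and Ro25. The 1 was Apaf1, at 0.56 (adjusted p = 0.0400), and Bbc3 (0.41, 0.172), Pmaip1 (0.42, 0.257), Cycs (-0.35, 0.158) and Bcl2l1 (-0.30, 0.156) did not pass. That Bcl2l1 call was lost when any one of AP5 replicates 1, 3, 4 and 5 or Ro25 replicates 1, 2, 3 and 5 was left out (-0.23 to -0.19). Bcl2 did not pass, at -0.33 (adjusted p = 0.0913), and did without AP5 replicate 4 (-0.39, 0.0464) or Ro25 replicate 1 (-0.40, 0.0328). Its second probe differed between AP5 and Ro25 by -0.07 (limma adjusted p = 0.809 with every probe tested by itself). Between NVP and Ro25 0 of the 10 passed (limma), where 0% of all genes did (0 of 19513; 1151 genes and 1 of the 10, Pmaip1, had an unadjusted p under 0.05). Pmaip1 was lower with NVP than with Ro25 by 0.20 (95% interval 0.01 to 0.39; adjusted p = 0.843), and the intervals of the other 9 genes crossed 0, the widest being that of Hrk, from -0.25 to 0.45.

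Around these genes, 65 others of the pathway were listed by function, also with earlier results of these data known. Of the 65, 62 were on the array and 59 were tested. Between AP5 and control 1 of the 59 rose, where 2.52% of all genes did, and 6 fell, where 3.55% did, with a median difference of 0.00. The single riser is near the share over all genes, and these shares apply to each list below. Most BH3-only, caspase and inhibitor genes outside the 10 did not pass.

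Of the 8 BH3-only genes tested, 3 rose and 0 fell, with a list median of 0.33. Beside Bbc3 and Pmaip1 the riser was Bid, whose product is cleaved by caspase-8 and carries its signal to mitochondria. Bid had log2 ratios of -1.08, -1.02, -1.22, -1.13 and -1.03 in control and -0.50, -0.49, -0.44, -0.50 and -0.44 with AP5. The difference was 0.62 (SE 0.06; limma adjusted p = 1.24e-06), and Bid was also higher with AP5 than with NVP, by 0.69, and than with Ro25, by 0.65. Bmf, a BH3-only protein that senses detachment, was higher with AP5 than with NVP by 0.40 (adjusted p = 0.00212) but differed from control by 0.17 (0.233). The Bmf call against NVP was lost with the slide as a fixed block (0.41, adjusted p = 0.15) and with median centring (0.51, 0.488). It was kept on the first scan day (0.37, 0.0318). Bad and Bik differed from control by 0.14 and -0.09 and did not pass.

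Of the 3 multidomain effectors, Bok fell and Bax and Bak1 did not pass. Bok is abundant in brain and known to act apart from Bax and Bak1. It ran from -0.61 to 0.15 in control and from -1.26 to -0.81 with AP5, a difference of -0.72 (SE 0.15; limma adjusted p = 0.00473). Of the 8 anti-apoptotic genes listed 4 were tested: Bcl2 and Bcl2l1 fell, and Mcl1 and Bcl2l2, at -0.02, did not pass. Of the 5 other Bcl2-related genes tested, 0 passed.

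Among the 8 genes of the apoptosome and caspases 1 rose and 1 fell, and these were Apaf1 and Cycs. Casp9, the protease that the apoptosome activates, was higher with AP5 than with NVP by 0.27 (limma adjusted p = 0.0304) and differed from control by 0.21 (0.104). The Casp9 call against NVP was lost with the slide as a fixed block (0.34, adjusted p = 0.21). It was also lost on the first scan day (0.30, 0.0802) and with median centring (0.45, 0.745). Of the 11 caspase inhibitors and their antagonists tested, 1 fell: Birc5 (survivin), at -0.53 (SE 0.12; adjusted p = 0.0126). Birc5 is also a gene of dividing cells, and 4 of 7 such genes fell (Ccna2, Ccnb1, Birc5 and Aurkb); the mean of the 7 ran from -3.20 to -2.93 on the AP5 arrays and from -2.71 to -2.37 on the control arrays. Their part in the Birc5 result was not tested.

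**Figure D4:**
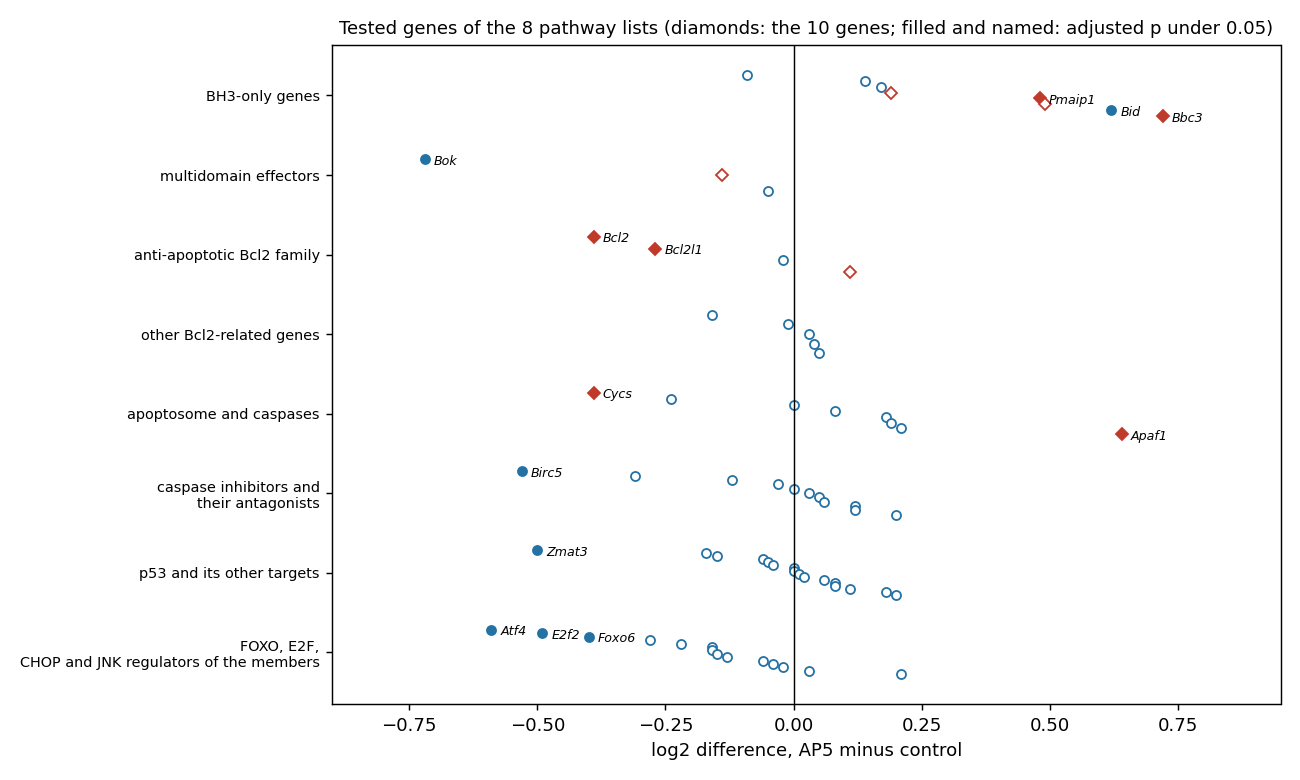
Log2 difference of AP5 minus control (x axis) for every tested gene of the 8 pathway lists (rows); diamonds are the 10 genes and circles the 59 others, filled and named where the limma adjusted p was under 0.05. Filled points to the right of 0 occur in the BH3-only and the apoptosome lists, and the p53 and regulator lists hold filled points on the left, from -0.40 to -0.59.

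Known regulators of the 10 genes were read in the same way. In the list of p53 and its other targets 0 of 16 rose and 1 fell, with a median of 0.00. Trp53 differed by 0.00, its negative regulator Mdm2 by -0.05 and the cell cycle inhibitor Cdkn1a by 0.00. The gene that fell was Zmat3, at -0.50 (SE 0.11; limma adjusted p = 0.00882), lower also against NVP (-0.46) and Ro25 (-0.45). With the slide as a fixed block Zmat3 passed against neither NVP (-0.41, adjusted p = 0.321) nor Ro25 (-0.58, 0.168). A count of 0 risers in 16 is near the 2.52% of all genes that rose.

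Of 14 FOXO, E2F, CHOP and JNK pathway genes 0 rose and 3 fell, with a median of -0.16. Foxo6, a FOXO gene known from the hippocampus, ran from 2.99 to 3.40 in control and from 2.74 to 2.97 with AP5, a difference of -0.40 (SE 0.08; limma adjusted p = 0.0057). Atf4, the stress factor upstream of CHOP, fell by 0.59 (adjusted p = 0.0023), and E2f2 fell by 0.49 (0.0162). Foxo3 differed by 0.03, Ddit3 (CHOP) by -0.16 and Jun by 0.21, and these did not pass. Between NVP or Ro25 and control 0 of the 59 genes passed.

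Genes with the most similar profile over the 20 arrays were named for each of the 6 that passed, by the root mean square difference of centred log2 ratios. Nearest to Apaf1 was the lipid transfer gene Osbpl5 (0.079 log2 units; 0.64 higher with AP5 than control), followed by Twsg1. Nearest to Bbc3 were Upf2 (0.119), Dusp14 and Mycl1, and to Pmaip1 Lin7c (0.125), 4921524J17Rik and Cflar; Cflar, an inhibitor of caspase-8 activation, rose by 0.42 (limma adjusted p = 0.0232). For Bcl2 they were Adra1b (0.063), Snx25 and Ppp1cc, for Bcl2l1 Eefsec (0.060), Nfkbib and AK078618, and for Cycs D13Wsu50e (0.051), Ap3s1 and Cyb561d1. A small distance is easier for a gene of small spread, and the SD over the arrays was 0.13 for Bcl2l1 and 0.35 for Bbc3.

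The arrays lay on 7 slides, with AP5 and control arrays always on different slides: 4 of the 5 control arrays shared slide 5, and control replicate 3 was with 3 Ro25 arrays on slide 4. Slide 5 held no other group, and AP5 replicates 2, 3 and 4 lay on slides 1 and 7, which held AP5 only. A slide-blocked difference from control thus rests on control replicate 3 and on AP5 replicates 1 and 5. AP5 replicate 1 was the array with low neuronal markers. With the slide as a fixed block, which joins AP5 to control through the other groups, 0 of the 10 genes and 41 of all genes passed. The 6 called genes kept their sign, but Bbc3 at 0.13 (SE 0.19) and Pmaip1 at 0.22 (SE 0.24) lay within 1 SE of 0. Apaf1 was at 0.46 (SE 0.17), Bcl2 at -0.28 (SE 0.27), Bcl2l1 at -0.46 (SE 0.14) and Cycs at -0.27 (SE 0.16). The adjusted p of the 6 ran from 0.171 to 0.752. Of the 7 other pathway genes called, Bid still passed, at 0.88 (adjusted p = 0.0305). The other calls were lost, with Bok at -0.17 (0.824), Birc5 at -0.30 (0.674), Zmat3 at -0.94 (0.168), Foxo6 at -0.78 (0.136) and E2f2 at -0.61 (0.374), and Atf4 turned to 0.15 (0.744). With the slide as a random block 6 of the 10 genes and 1340 of all 19513 passed. The correlation within a slide was estimated there at -0.0404, so that fit made almost no adjustment for slide. Slide and AP5 treatment can therefore be told apart only in part.

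AP5 did share slides with the other antagonists. On slide 2, 1 AP5 array lay beside 3 NVP arrays, and its difference from their mean was 0.47 for Bbc3, 0.55 for Pmaip1, 0.49 for Apaf1, -0.27 for Bcl2l1 and -0.23 for Cycs. On slide 6, 1 AP5 array lay beside 1 Ro25 array, and the differences were 0.54, 0.57, 0.56, -0.36 and -0.57 in the same order. For these 5 genes no AP5 array overlapped the NVP or the Ro25 arrays. The direction within a slide was therefore fixed in advance and adds nothing to the pooled differences, and these single arrays carry no test.

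Arrays were scanned on 3 days, and AP5 replicates 1 and 3 and Ro25 replicate 2 were scanned after the first. Scan day was thus partly tied to AP5. The 17 arrays of the first day included AP5 replicates 2, 4 and 5 and every control and NVP array. On those 4 of the 10 genes and 917 of all 19513 passed: Bbc3 at 0.64, Pmaip1 at 0.40, Apaf1 at 0.53 and Cycs at -0.34, while Bcl2 (-0.35, adjusted p = 0.123) and Bcl2l1 (-0.21, 0.0833) did not. Bid passed on these arrays at 0.62, and Foxo6 (-0.35, adjusted p = 0.0575) and E2f2 (-0.52, 0.0513) did not. Without AP5 replicate 1 alone, the array with low neuronal markers, 7 of the 10 and 1220 of all 19513 passed, the 7 being the 6 and Hrk, with Bbc3 at 0.66, Pmaip1 at 0.46, Apaf1 at 0.58, Bcl2 at -0.36, Bcl2l1 at -0.25 and Cycs at -0.35.

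With median centring of each array in place of loess, 0 of the 10 genes and 166 of all genes passed. The 7 other pathway genes called between AP5 and control lost their calls too, Bid at 0.81 (adjusted p = 0.0851; 0.0558 against NVP and 0.121 against Ro25). Bbc3, Pmaip1 and Apaf1 were then at 0.67 to 0.90 and Bcl2, Bcl2l1 and Cycs at -0.28 to -0.16, with adjusted p from 0.125 to 0.964. Both scalings gave the 6 genes the same direction, but Bcl2l1 at -0.16 (SE 0.18) then lay within 1 SE of 0.

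**Figure D5:**
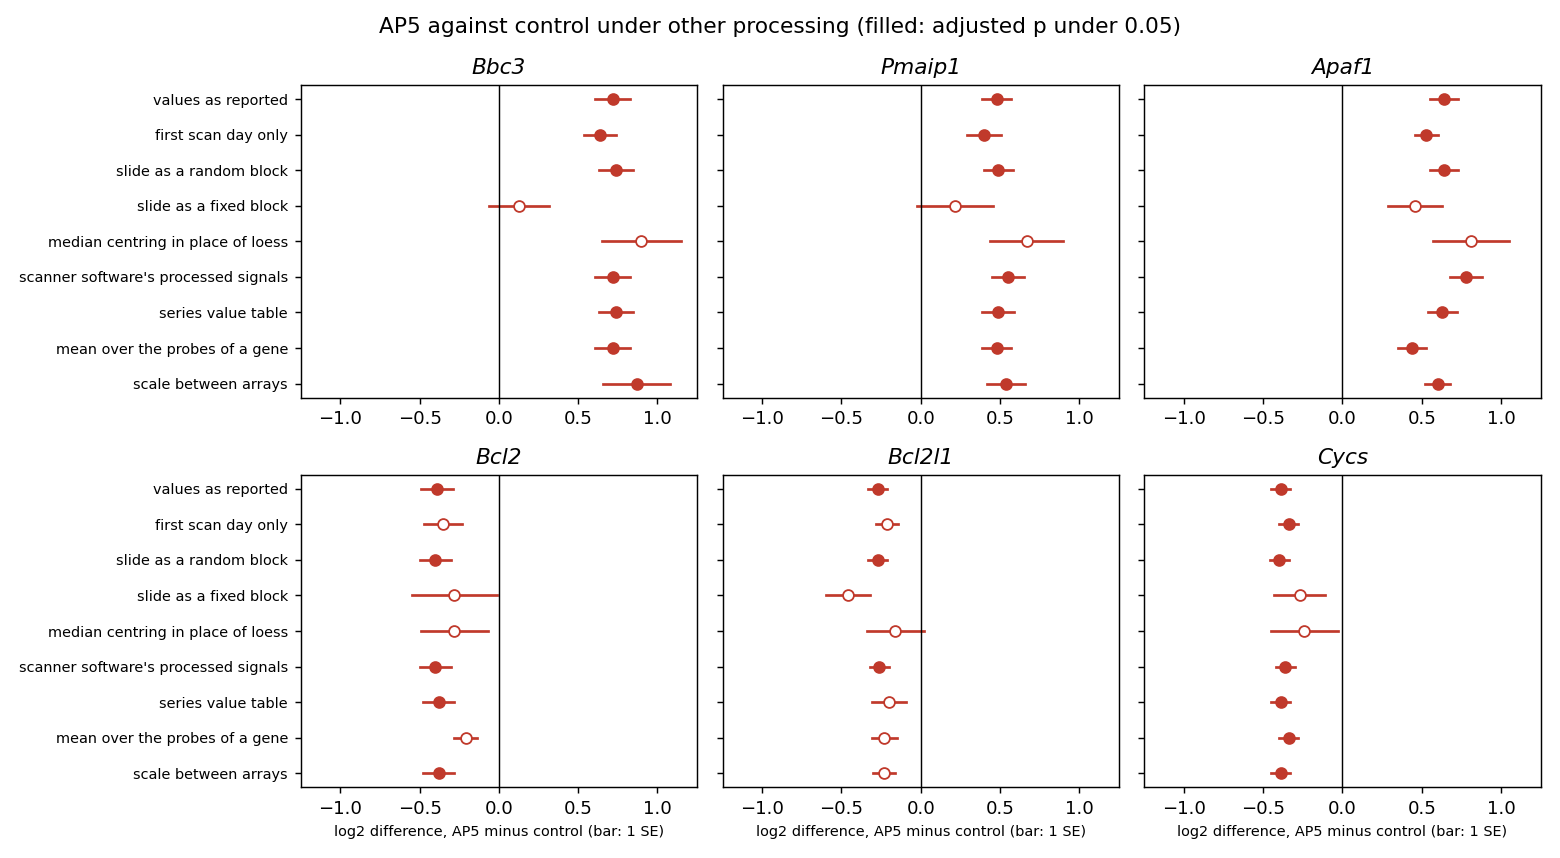
Log2 difference of AP5 minus control (x axis; bars, 1 SE) of the 6 called genes under other processing (rows), filled where the limma adjusted p was under 0.05. Every point keeps the sign of the reported value; the fixed slide block and median centring hold no filled point.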

How the data were processed

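RNA of 20 samples, 5 in each of 4 groups taken from the sample titles, was hybridised in Cy5 against a common reference in Cy3 on 2-colour arrays. The authors deposited scanner output with spot intensities on a linear scale, extracted, per the file headers, by Feature Extraction version 10.7.3.1 (11.0 per the submitters' processing notes), beside the software's own log10 ratio, and a series table of log2 ratios whose normalization and centring are not given in the sources used here; its column medians were 0.0302 to 0.0626. The deposited scanner files name the genes.

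From the intensities, background was corrected with normexp (offset 50), each array was normalised by loess with control spots at weight 0, outlier-flagged spots (0.282%) were left out and spots of a probe were averaged. A probe was kept where 5 or more arrays had its red signal well above background (28498 of 41174), and a gene was read from its brightest probe. A mean per group was fitted over the 20 arrays with lmFit and eBayes (limma 3.58.1 in R 4.3.3; the package data.table, version 1.17.8), 6 pairs of groups were tested two-sided, and p-values were adjusted by Benjamini-Hochberg over all genes at 0.05. The script was tested on simulated data. Named beyond the 10 genes were, per list, at most 6 others that passed in any comparison, and the 3 nearest profiles of each gene passing between AP5 and control; other list genes with values were added after these were seen. Some genes that this rule names are not reported here. The genes and lists were chosen with earlier results of these data known. Alternatives covered background, normalization, filter, probe choice, slide, scan day, replicate number, the arrays fitted and each array left out.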

Additional observations from a re-analysis of the deposited data

Results flagged for a closer look

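Of 40 sets of 5 arrays (10 genes in 4 groups) 4 held an array far from the other 4 by Dixon's criterion, and chance gives about 1 in 20. Apaf1 was -1.19 on Ro25 replicate 2, against -1.53 to -1.50 on the other Ro25 arrays. That array shared slide 6 with AP5 replicate 1, which had the highest Apaf1 value of the AP5 arrays (-0.62). Bbc3 was also the highest of its group on both arrays (1.16 and 1.70), whereas Pmaip1 was not (0.16 and 0.73). A shift shared by the slide was not tested. Pmaip1 was -0.07 on control replicate 4, against 0.19 to 0.27. Hrk was 0.78 on control replicate 5, against 1.27 to 1.34. Bcl2 was 0.47 on Ro25 replicate 1, against 0.80 to 0.87.

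By the direct limma contrast 5 of the 10 genes differed between AP5 and NVP, where 5.7% of all genes did. Between AP5 and Ro25 5 of the 10 differed, where 3.09% of all genes did. With the slide as a fixed block 0 of the 10 passed against NVP, with 34 of all genes higher and 73 lower. Against Ro25 1 of the 10 and 206 of all genes then passed. With median centring 0 of the 10 passed against either, where 121 and 83 of all genes did. Against NVP the log2 differences were 0.60 for Apaf1, 0.75 for Bbc3, 0.72 for Pmaip1, -0.26 for Bcl2l1 and -0.38 for Cycs. Against Ro25 they were 0.57 for Apaf1, 0.62 for Bbc3, 0.52 for Pmaip1, -0.22 for Bcl2l1 and -0.38 for Cycs. The doses of the antagonists were not matched.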

How the results depend on the processing

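Over 15 alternatives other than leaving out an array, 824 of 900 values of a gene in a comparison kept their direction and their side of the threshold, 54 lost a call, 5 gained one and 17 changed sign; over single arrays left out the numbers were 586, 11, 3 and 0 of 600. A change of sign was counted where a value passed the test or lay further from 0 than its own SE; 21 and 25 uncalled values within 1 SE of 0 also changed sign. Aquantile scaling leaves log ratios as they are by construction. The scale normalization was chosen after seeing the data.

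Between AP5 and control, genes passing (10 genes of interest in brackets) were 166 (0) with median centring, 41 (0) with the fixed slide block, 771 with only the 2 groups and 717 with scale normalization, and 830 to 1220 (5 to 7) with an array left out. Of the 41, 32 were among the 1183, 1074 of which kept their direction; the median SE rose from 0.0963 to 0.226. Between AP5 and NVP they were 121 (0) with median centring, 1.1e+02 (0; 34 genes higher and 73 lower) with the block, 634 on the first scan day, 612 with scale, and 745 to 1323 (5 to 5). Between AP5 and Ro25 they were 83 (0) with median centring, 206 (1) with the block, 297 (3) on the first day, 236 with only the 2 groups, 292 (3) with scale, and 461 to 562 (4 to 5). The 3 genes of Ro25 against control became 0 with median centring, processed signals, no dim-probe filter, single probes, the slide block, the first day and only the 2 groups, and 0 to 2 with an array left out. The counts of NVP against control and NVP against Ro25 were 0 to 0.

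Signs changed with the slide block for Bcl2l11 (-0.60), Hrk (-0.36) and Bax (0.29) in AP5 against control, Bcl2l11 (-0.59) in NVP against control, Bbc3 (-0.28), Bcl2l11 (-0.45) and Mcl1 (0.26) in Ro25 against control, Bcl2l11 (-0.01), Hrk (-0.14) and Bax (0.05) in AP5 against NVP, and Hrk (-0.23) and Bax (0.01) in AP5 against Ro25. They changed with the series table for Bcl2l1 in NVP against control (0.16) and Mcl1 in AP5 against Ro25 (-0.01), with median centring for Bax in AP5 against NVP (0.01), on the first day for Bcl2l11 in AP5 against NVP (0.00) and with the mean over probes for Bcl2 in NVP against Ro25 (0.01). With the slide block every comparison with control rests on control replicate 3, because the other control arrays lay on slide 5 with no other group. The block values of Ro25 against control equal the differences within slide 4, where 3 Ro25 arrays lay beside 1 control array. The cause of the sign changes was not tested.

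Replicate numbers were not taken as pairs: 11 of 30 same-numbered pairs correlated above 0.1 (-0.445 to 0.763). Of the 11, 6 were the pairs of replicate 5, all between 0.568 and 0.763, so the 4 arrays numbered 5 deviated together; 4 of 20 arrays correlated best with their own number. With the replicate block 1238 genes and 7 of the 10 passed between AP5 and control, Hrk at 0.49 (adjusted p = 0.0322) being the seventh, and 1170 (5) against NVP and 656 (4) against Ro25. Hrk also passed with the series table (0.64) and scale normalization (0.57). Dim probes limit Apaf1 and Bcl2l11 to 1 well measured probe each.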
